A study of Homo sapiens with 4 samples.

Results

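The beta-tubulin isotypes are the 7 genes TUBB, TUBB2A, TUBB2B, TUBB3, TUBB4A, TUBB4B and TUBB6, which encode the tubulin subunit that paclitaxel binds. They were found by gene name and make up 7 of the 26485 gene names in each deposited table. Their mRNA was measured by RNA sequencing in 2 established human cell lines of anaplastic thyroid cancer (ATC), SW1736 and 8505C. Each line was sequenced as untreated wild-type cells (SW1736 wt and 8505C wt) and as paclitaxel-resistant cells (SW1736-PTX and 8505C-PTX), which gave 4 libraries, 1 for each condition. For the PTX cells, exposure lasted 6 months, with paclitaxel doses that started at 1 nM and ended at 1.5 µM, and the medium held 1.5 µM of the drug from then on, while wt cells received none. The resistant cells are 1 selected population per line, and the sources used here do not say whether they were cloned or whether the drug was still in the medium when the RNA was taken. The comparisons ask how much of each beta-tubulin mRNA the resistant cells held beside the wt cells. Because there were no replicates, no p-value was computed, a difference between libraries has no replicate check, and the lines are not replicates of each other.

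Alpha- and beta-tubulin form the dimers from which microtubules, the filaments of the mitotic spindle and of the interphase cytoskeleton, are built. Paclitaxel binds beta-tubulin on the inner face of the microtubule and keeps it from disassembling, which stops dividing cells in mitosis. The isotypes are separate genes whose proteins are alike along most of their length and differ mainly at the acidic carboxy-terminal tail, which lies on the microtubule surface and is where many modifying enzymes act. TUBB and TUBB4B are found in most tissues, TUBB6 is also broadly expressed, TUBB2A, TUBB2B and TUBB4A are most abundant in the nervous system, and TUBB3 is used as a marker of neurons and has been studied in taxane-treated tumours.

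The isotypes were less alike at the end of the reading frame than over the rest of it. For TUBB2A and TUBB2B the gap was small, with 96.7% identity at the end and 98.2% before it. The last 60 coding bases of each isotype are shown, 5′ to 3′, in lower case with the stop codon in capitals. They were read from the MANE transcripts of GENCODE release 44 on hg38. All 7 stretches lie within a single exon.
TUBB: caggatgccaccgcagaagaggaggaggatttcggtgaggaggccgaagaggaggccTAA
TUBB2A: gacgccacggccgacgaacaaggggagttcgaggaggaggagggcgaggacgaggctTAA
TUBB2B: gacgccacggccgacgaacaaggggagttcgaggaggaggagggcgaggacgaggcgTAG
TUBB3: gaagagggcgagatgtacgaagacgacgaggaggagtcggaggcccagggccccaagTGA
TUBB4A: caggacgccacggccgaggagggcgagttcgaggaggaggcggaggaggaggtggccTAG
TUBB4B: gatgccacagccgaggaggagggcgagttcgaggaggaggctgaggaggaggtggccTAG
TUBB6: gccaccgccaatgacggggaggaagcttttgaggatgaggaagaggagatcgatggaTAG
Between TUBB and TUBB3, 48.5% of the aligned columns of these ends were identical, and between TUBB4A and TUBB4B 85.7%. Over whole reading frames, 20 of the 21 isotype pairs shared between 80.9% and 90.1% of their bases. TUBB2A and TUBB2B were the exception, with 98.1% identity and 25 differing bases in 1338. The bases that set this pair apart are closest together in coding positions 154 to 228, counted from the first base of the start codon, where 10 of the 25 fall and are shown in capitals.
TUBB2A window: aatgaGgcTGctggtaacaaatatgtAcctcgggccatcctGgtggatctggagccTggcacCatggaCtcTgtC
TUBB2B window: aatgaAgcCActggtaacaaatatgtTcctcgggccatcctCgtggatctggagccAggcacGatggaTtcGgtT
Of the 1264 stretches of 75 bases in either reading frame, the length of 1 read, 864 were the same in both genes, so a read from them cannot be assigned by its sequence. Stretches of 75 bases that also occur in a transcript from another locus made up 59.5% of the TUBB2A transcript, 52.1% of TUBB2B, 8.97% of TUBB, 6.80% of TUBB3, 5.64% of TUBB4B and 2.18% of TUBB4A, and none were found in TUBB6. The values of TUBB2A and TUBB2B are therefore uncertain to the extent that the authors' counting could split reads between them. At its own locus, 92.6% of the TUBB3 transcript is also part of a longer read-through gene model (ENSG00000198211) that begins upstream and runs into TUBB3, and reads on it cannot be told apart from TUBB3 reads. Gene models on the opposite strand cover 19.0% of the stretches of TUBB and 19.5% of those of TUBB4A, and the sources used here do not say whether reads were counted by strand.

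**Figure D1:**
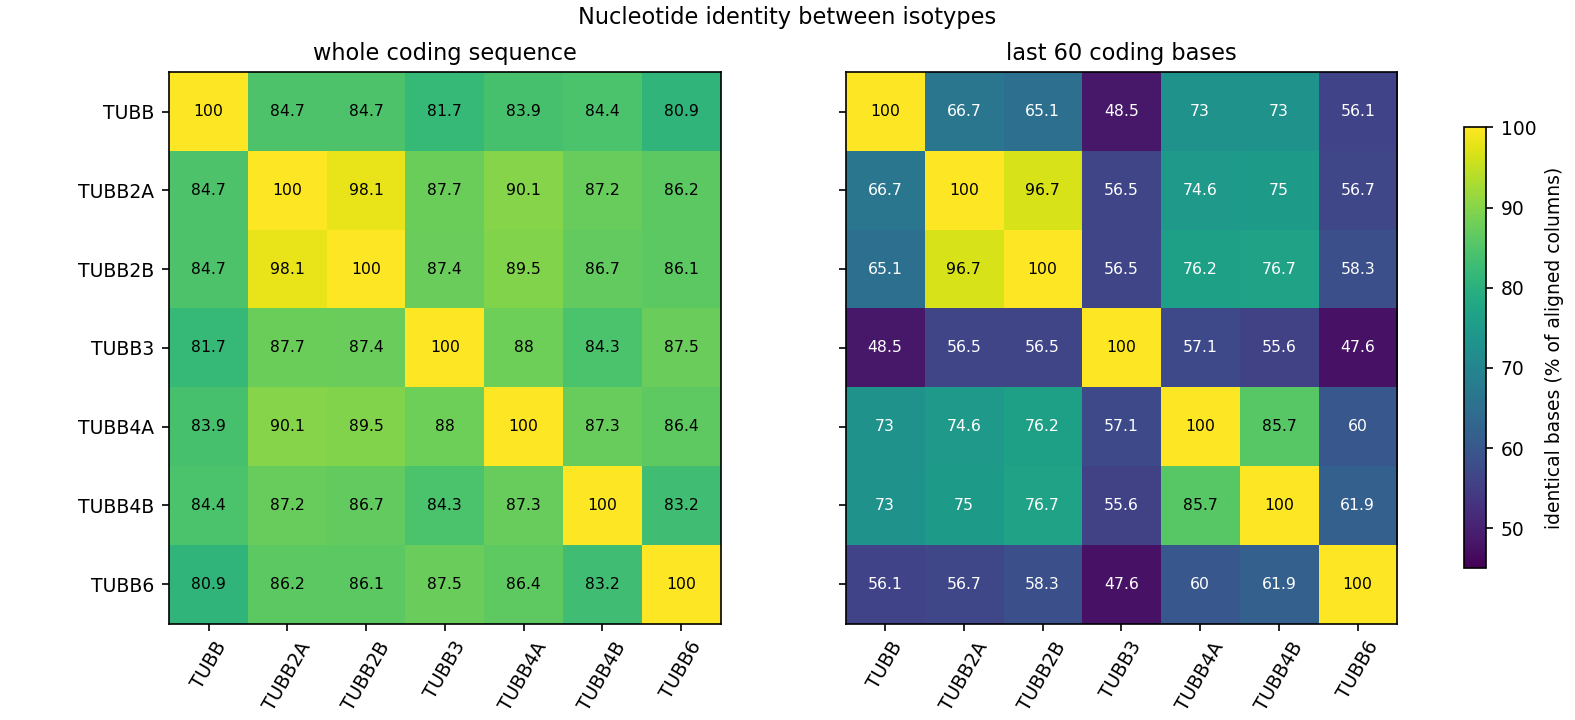
Identical bases as a percentage of aligned columns, for each pair of the 7 isotypes (rows and columns), over the whole coding sequence on the left and over the last 60 coding bases on the right; colour and printed number give the same value. TUBB2A and TUBB2B stand out at 98.1% over the whole sequence, and TUBB3 has the lowest identity to the others over the last 60 bases, from 47.6% to 57.1%.

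The depth was 48.9 M reads for SW1736 wt, 57.9 M for SW1736-PTX, 43.5 M for 8505C wt and 53.6 M for 8505C-PTX, worked out from the deposited coverage and FPKM. FPKM is the number of fragments scaled to the length of the gene model and to the depth of the library, and it is relative to all other mRNA of the library. The counting error of a level, from the lower of the read estimates by FPKM and by coverage, was between 0.350% and 6.91% for isotypes above 0 FPKM, and 18.5% for TUBB4A in 8505C wt. Levels of different isotypes on this scale depend on the gene model. The ratio of coverage to FPKM was between 0.539 and 0.687 of its highest value in TUBB and TUBB6 and 0.159 in TUBB3. The level of TUBB3 beside the other isotypes may therefore be too high by FPKM or too low by coverage, and which was not tested. In mRNA from a whole culture, fewer cells that use a gene and less RNA per cell cannot be told apart. The SW1736 libraries were unlike each other. Over 14692 genes, the log2 values of the library labelled SW1736-PTX correlated with SW1736 wt at r = 0.77, with 8505C wt at 0.87 and with 8505C-PTX at 0.93. SW1736 wt correlated with 8505C wt at 0.85 and with 8505C-PTX at 0.75, and the 8505C libraries with each other at 0.88. Which of the SW1736 libraries differs from its line cannot be told apart. Of 148 genes above 5 FPKM in 8505C wt and below 0.5 FPKM in SW1736 wt, 132 were above 1 FPKM in the library labelled SW1736-PTX, and 12 were below 0.5. TUBB2B was among those 12. For this reason most SW1736 results are also given against 8505C wt. Defining markers of the thyroid follicle were at or near 0: TSHR and SLC5A5 were at 0 in all 4 libraries and TG reached 0.00586 FPKM. The thyroid transcription factors PAX8 and FOXE1 were at 38.2 and 26.6 FPKM in SW1736 wt and at most 0.206 and 0.511 elsewhere. NKX2-1, another such factor, was at 0 in SW1736 wt and between 30.5 and 39.0 FPKM in the other 3 libraries.

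Summed over the 7 isotypes, beta-tubulin mRNA was 2189 FPKM in wt and 1218 in PTX cells of SW1736, and 1659 in wt and 861 in PTX cells of 8505C. Both PTX libraries were below both wt libraries. The sum in the PTX library was 55.6% of the wt level in SW1736 (log2 change of -0.85) and 51.9% in 8505C (-0.95). Neither is past the limit of 1.5 on the log2 scale used here to call a change, and against 8505C wt the library labelled SW1736-PTX stood at 73.4% (-0.45). As a part of all mRNA, in TPM, which has the same total in every library, beta-tubulin made up 0.499% in wt and 0.269% in PTX cells of SW1736, and 0.379% and 0.192% in those of 8505C. The partner subunit was at a similar level: the 8 alpha-tubulin genes added up to 2186, 1220, 2266 and 1205 FPKM in the same order. Alpha-tubulin per beta-tubulin was 0.999 (SW1736 wt), 1.00 (SW1736-PTX), 1.37 (8505C wt) and 1.40 (8505C-PTX), so the ratio differed between the lines and hardly within them.

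A gene was compared within a pair where its FPKM was above 0.5 in at least 1 of the libraries, and it was called when log2((PTX + 0.1)/(wt + 0.1)) of its FPKM was beyond 1.5 in either direction. In SW1736, 1 of the 6 isotypes compared was called higher in the PTX library and 0 lower. Among all 14202 genes compared there, 25.9% were called, 15.7% higher and 10.2% lower. In 8505C, 1 of the 7 isotypes was called higher and 0 lower, beside 20.9% of all 13794 genes, 15.0% higher and 5.89% lower. The called isotype was TUBB4A in both, and it was called in neither where both libraries of a pair had to be above 0.5 FPKM. These counts are near the background or below it and are no result about the isotypes as a group. The median log2 change of the isotypes compared was -0.75 in SW1736 and -0.62 in 8505C, while the median of all genes compared was 0.01 and 0.11. Against 8505C wt, the isotype median in the library labelled SW1736-PTX was -0.37, beside 0.098 for all genes compared. Among abundant genes, with a mean above 100 FPKM over all 4 libraries, the median was -0.02 in SW1736 over 676 genes, with quartiles of -0.71 and 0.60. In 8505C it was -0.13 over 675 genes, with quartiles of -0.74 and 0.48.

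**Figure D2:**
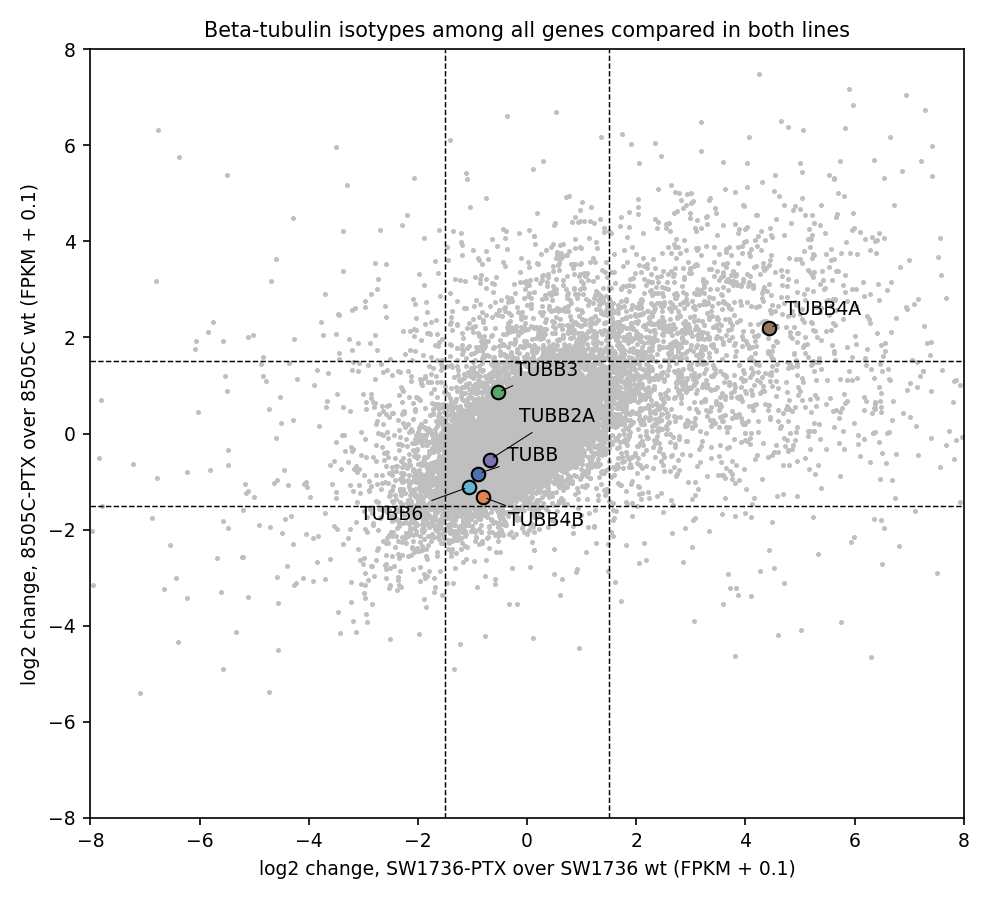
Log2 change of FPKM + 0.1 in SW1736 (horizontal axis) and in 8505C (vertical axis), PTX library over wt library; each grey point is 1 of the 13304 genes compared in both lines, 43 of which lie outside the axes, coloured points are isotypes, and dashed lines mark 1.5 in each direction. TUBB, TUBB2A, TUBB4B and TUBB6 lie below 0 on both axes and inside the dashed lines, TUBB3 lies on opposite sides of 0 in the lines, and TUBB4A lies beyond 1.5 on both axes; TUBB2B, at 0 FPKM in both SW1736 libraries, is not plotted.

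TUBB4B, TUBB and TUBB6 carried most of the signal, with 91.7% of the summed FPKM in wt and 89.8% in PTX cells of SW1736, and 92.7% and 83.2% in those of 8505C. TUBB4B, the isotype also known as class IVb, had the highest FPKM in every library, nearly level with TUBB in 8505C-PTX, at 961 FPKM in wt and 547 in PTX cells of SW1736, and 751 in wt and 301 in PTX cells of 8505C. It had the lowest log2 change of any isotype in 8505C, -1.32, with the PTX library at 40.0% of wt, and 7.88% of all genes compared in 8505C had a lower value. In SW1736 its log2 change was -0.81, and against 8505C wt it was -0.46. Its place in the genome, by the deposited table on hg38, is chr9:137241259-137243707, plus strand.

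TUBB, the class I isotype that dividing cells use throughout the body, was measured at 805 FPKM (SW1736 wt), 432 (SW1736-PTX), 529 (8505C wt) and 297 (8505C-PTX). Both PTX libraries were below both wt libraries, at 53.7% of wt in SW1736 (log2 change -0.90) and 56.1% in 8505C (-0.83). Against 8505C wt the log2 change of the library labelled SW1736-PTX was -0.29. TUBB lies at chr6:30720201-30725426, plus strand. The table gave its name to 8 rows, of which 1 was above 0 in each library.

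TUBB6, the class V isotype, was at 241 FPKM in wt and 115 in PTX cells of SW1736, and 257 in wt and 119 in PTX cells of 8505C. The lines were nearly at the same level as each other in both conditions, and both PTX libraries were lower than both wt libraries. The PTX level was 47.7% of wt in SW1736 (log2 change -1.07) and 46.2% in 8505C (-1.11). Of the 6 isotypes compared in SW1736, TUBB6 moved least with the choice of reference, with -1.16 against 8505C wt. It lies at chr18:12307669-12329825, plus strand. By the deposited spans it overlaps AFG3L2, a mitochondrial protease gene (log2 changes of -0.78 and -0.53).

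TUBB2A, one of the class II isotypes, was at 60.4 FPKM (SW1736 wt), 37.6 (SW1736-PTX), 48.7 (8505C wt) and 33.4 (8505C-PTX). These values lay in the same order by condition as those of TUBB, with log2 changes of -0.68 in SW1736 and -0.54 in 8505C, and -0.37 against 8505C wt. Over the 4 libraries it had the narrowest range of the isotypes, 1.81-fold from lowest to highest. It lies at chr6:3153666-3157549, minus strand.

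TUBB2B, the other class II isotype, was listed at 0 FPKM in both libraries of SW1736, at 19.1 in 8505C wt and at 12.4 in 8505C-PTX. Both 8505C libraries were above both SW1736 libraries. The tables hold no read counts, an FPKM of 0 can come from a failed estimate or from the assignment of reads shared with TUBB2A, and no fold is given against it. TUBB2B was the 1 isotype called of 6 between the wt libraries, where 17.6% of 13457 genes were called, and the 1 called of 7 between the PTX libraries, where 7.79% of 13986 genes were called. These comparisons use the same libraries as the PTX comparisons. Within 8505C the log2 change of TUBB2B was -0.62. Its locus is chr6:3224261-3227734, minus strand, 66.7 kb from TUBB2A. When 8505C wt was taken as the reference, 2 of 7 isotypes were called in the library labelled SW1736-PTX, TUBB2B lower and TUBB4A higher, beside 20.4% of 13824 genes.

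TUBB3, the neuronal class III isotype, was at 122 FPKM in wt and 84.0 in PTX cells of SW1736, and 53.4 in wt and 96.8 in PTX cells of 8505C. The PTX library was lower than wt in SW1736 and higher than wt in 8505C, with log2 changes of -0.53 and 0.86. The PTX libraries were closer to each other than the wt libraries were: 8505C-PTX over SW1736-PTX was 1.15, and 8505C wt over SW1736 wt was 0.440. Against 8505C wt the library labelled SW1736-PTX had a log2 change of 0.65, so the direction in SW1736 turned with the reference. TUBB3 lies at chr16:89922009-89936097, plus strand. Of 12 neuronal genes, 3 were compared in SW1736, with 1 called higher and 2 lower, beside 15.7% and 10.2% of all genes. In 8505C 1 was compared and was called higher, beside 15.0% of all genes. INA and SNAP25, named after their values were seen, were the lower ones in SW1736. They were at 22.6 and 19.6 FPKM in SW1736 wt and at most 0.0447 and 0.768 in the other libraries. Against 8505C wt, 2 neuronal genes were compared in the library labelled SW1736-PTX, with 2 called higher and a median of 3.42. In that comparison 20.4% of all genes were called in either direction. SNAP25 turned with the reference, being higher at 0.768 FPKM beside 0.0434 in 8505C wt. MAP2 was called higher against either reference, and INA was below 0.5 FPKM in both libraries and was not compared. MAP2, a microtubule-associated protein, was called higher in both lines, with 0.351 FPKM in wt and 2.38 in PTX cells of SW1736, and 0.0312 and 7.06 in those of 8505C. DCX, ELAVL4, STMN2 and NEFM, which mark neurons, were at 0 in all 4 libraries. The 12 genes summed to 43.1 FPKM in wt and 3.60 in PTX cells of SW1736, and 0.238 and 7.45 in those of 8505C, and their part in the TUBB3 values was not tested.

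TUBB4A, the class IVa isotype of the brain, was at 0 FPKM (SW1736 wt), 2.05 (SW1736-PTX), 0.294 (8505C wt) and 1.72 (8505C-PTX). Both PTX libraries were higher than both wt libraries, at a level that is a trace beside the other isotypes. The log2 change was 4.43 in SW1736 and 2.20 in 8505C, where 8505C-PTX was 5.83-fold higher than wt. The gene is listed at 0 in SW1736 wt, so the SW1736 value depends on the pseudocount and is no measured fold. TUBB4A passed the limit of 0.5 FPKM only through the PTX libraries: with that limit in both libraries of a pair it was called in neither line, and with a pseudocount of 1 its log2 change in 8505C was 1.07, short of a call. About 29.2 reads were behind the value in 8505C wt, 209 behind that in 8505C-PTX and 271 behind that in SW1736-PTX, as estimated from FPKM, depth and gene length. Against 8505C wt the log2 change of the library labelled SW1736-PTX was 2.45. TUBB4A lies at chr19:6494319-6502848, minus strand, and the antisense models over part of it cannot be told apart from it in reads counted without strand.

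**Figure D3:**
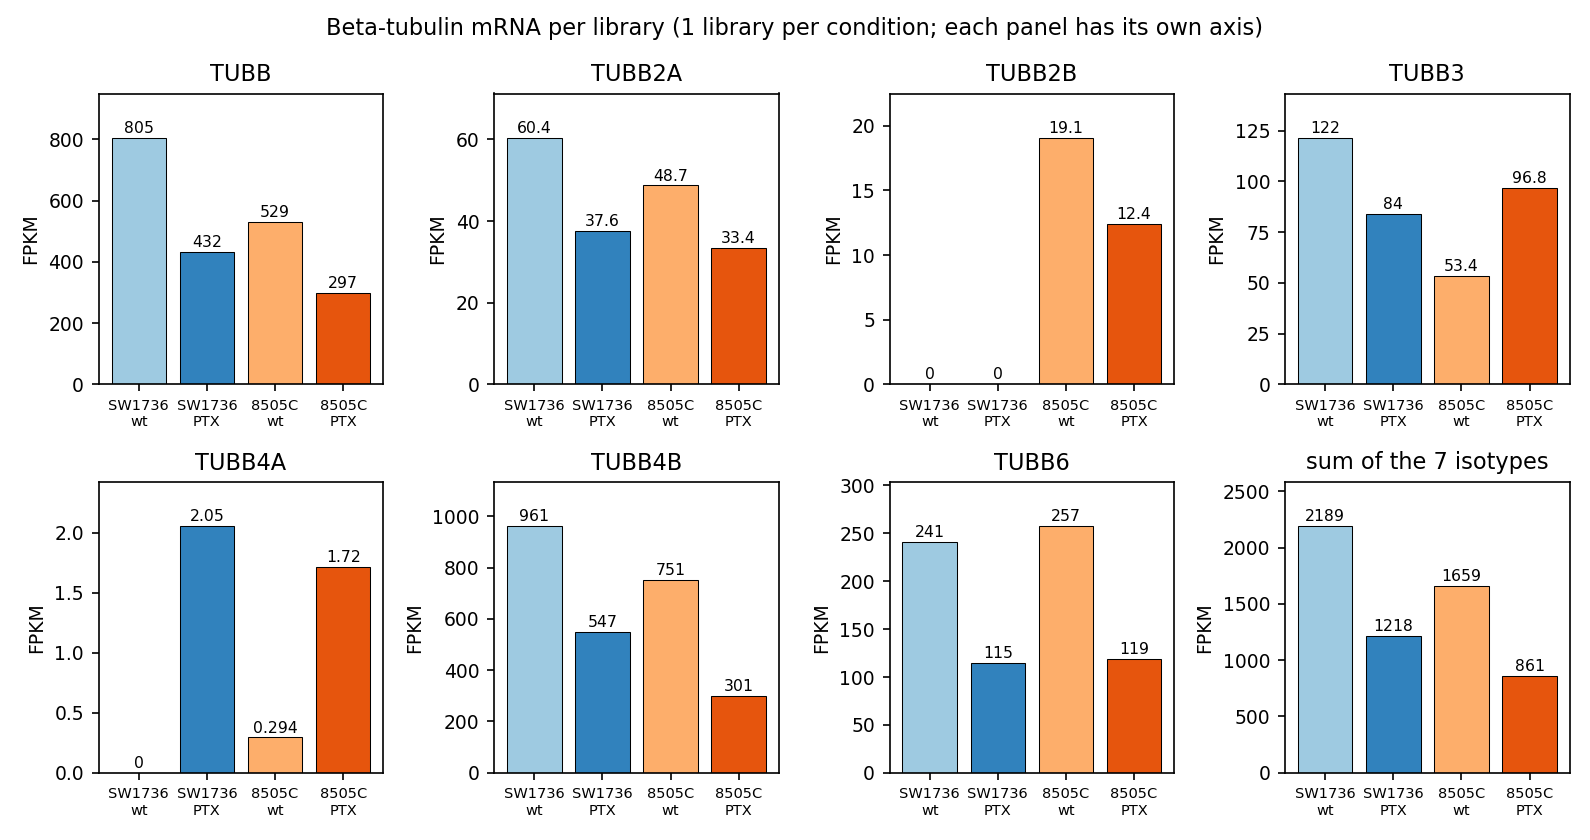
FPKM of each isotype, and of their sum, in the 4 libraries; each bar is 1 library, its value is printed above it, there are no error bars because each condition has 1 library, and each panel has its own axis starting at 0. The PTX bars are lower than the wt bar of the same line in TUBB, TUBB2A, TUBB4B and TUBB6, TUBB3 goes opposite ways in the lines, and TUBB4A reaches 2.05 at most.

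As shares of the summed FPKM, the isotypes differed little between the libraries of SW1736 and more between those of 8505C. The largest shift between wt and PTX was 1.58 percentage points in SW1736, for TUBB6, and 10.3 points in 8505C, for TUBB4B, and against 8505C wt the library labelled SW1736-PTX differed by up to 6.07 points, for TUBB6. TUBB4B made up 43.9% in the wt and 44.9% in the PTX library of SW1736, and TUBB 36.8% and 35.5%. In 8505C, TUBB4B went from 45.3% in wt to 34.9% in PTX, while TUBB was at 31.9% and 34.5%. TUBB6 was at 11.0% in wt and 9.45% in PTX cells of SW1736, and 15.5% and 13.8% in those of 8505C. TUBB2A held between 2.76% and 3.88% in the 4 libraries. The share of TUBB3 was 5.55% in wt and 6.90% in PTX cells of SW1736, and 3.22% and 11.2% in those of 8505C. TUBB3 had the highest share in 8505C-PTX, and in SW1736 its share was higher in PTX although its FPKM was lower. The size of that share depends on the column used. The deposited coverage of TUBB3 was low for its FPKM in all 4 libraries, at 0.159 of the highest coverage-to-FPKM ratio, which TUBB4B had. By coverage scaled to depth, the share of TUBB3 was 1.14% in wt and 1.42% in PTX cells of SW1736, and 0.639% and 2.45% in those of 8505C. The ratio was nearly constant, so the order of the libraries was the same by either column, while TUBB3 ranked above TUBB2A by FPKM and below it by coverage. As shares of reads, estimated from coverage times gene-model length and so not per length, TUBB was above TUBB4B in 3 of the 4 libraries, with 44.7% beside 40.2% in wt cells of SW1736, 44.4% beside 41.9% in its PTX cells and 45.6% beside 32.9% in 8505C-PTX, while in 8505C wt they were at 40.3% and 40.6%. TUBB3 then held 1.38% and 1.75% in wt and PTX cells of SW1736, and 0.784% and 2.87% in those of 8505C.

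**Figure D4:**
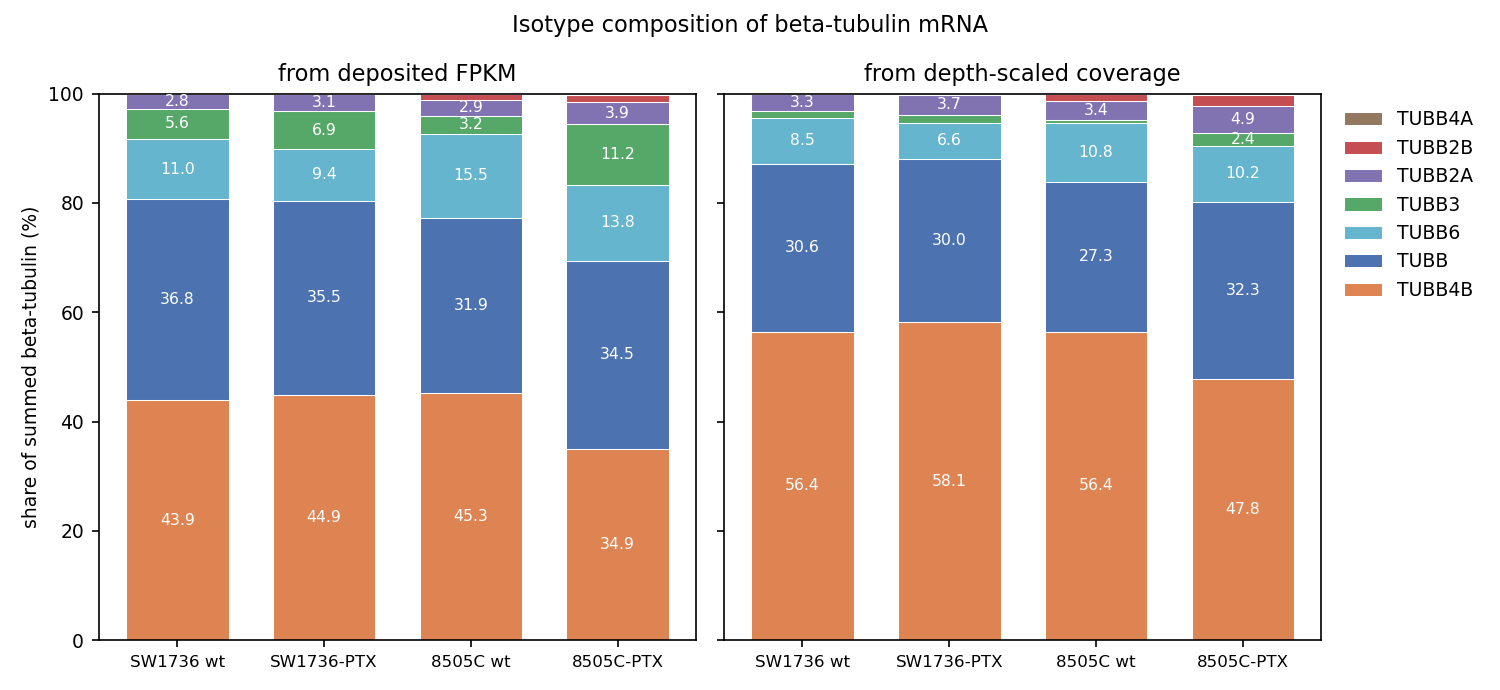
Share of each isotype in summed beta-tubulin (vertical axis, percent) in the 4 libraries, from deposited FPKM on the left and from depth-scaled coverage on the right; each stacked bar is 1 library and colours are isotypes. TUBB4B is the largest segment in every bar and is smallest in 8505C-PTX (34.9% by FPKM, 47.8% by coverage), and the TUBB3 segment is widest in 8505C-PTX (11.2% and 2.45%).

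Other names of the family were at trace levels. TUBB1, the isotype of platelets and megakaryocytes, was at 0.324 FPKM in wt and 0.104 in PTX cells of SW1736, and 0.265 in wt and 0.0846 in PTX cells of 8505C. TUBB8, the isotype of the oocyte, was at most 0.0249 FPKM, in 8505C-PTX.

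Promoters are shown for TUBB4B and TUBB6, which were lower in both PTX libraries, and for TUBB3 and TUBB4A, which were not. TUBB and TUBB2A were also lower in both and are not shown. Each is the 250 bases before the transcript start in RefSeq on GRCh38.p14, 5′ to 3′ on the strand of the gene, at chr9:137241037-137241286, chr18:12307991-12308240, chr16:89923092-89923341 and chr19:6502310-6502559 in that order. RefSeq listed 2 promoters each for TUBB, TUBB3, TUBB4A and TUBB6, and only the promoter at the start of the MANE transcript was read. Capitals mark 4 short motifs searched on both strands: the CCAAT box (CCAAT), the GC box (GGGCGG), the TATA box (TATAAA) and the cell cycle genes homology region, or CHR (TTTGAA).
TUBB4B promoter: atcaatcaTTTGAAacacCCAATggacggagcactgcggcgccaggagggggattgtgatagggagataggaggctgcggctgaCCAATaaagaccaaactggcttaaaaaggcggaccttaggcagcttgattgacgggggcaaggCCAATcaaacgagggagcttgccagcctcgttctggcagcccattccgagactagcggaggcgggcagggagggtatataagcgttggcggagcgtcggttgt
TUBB6 promoter: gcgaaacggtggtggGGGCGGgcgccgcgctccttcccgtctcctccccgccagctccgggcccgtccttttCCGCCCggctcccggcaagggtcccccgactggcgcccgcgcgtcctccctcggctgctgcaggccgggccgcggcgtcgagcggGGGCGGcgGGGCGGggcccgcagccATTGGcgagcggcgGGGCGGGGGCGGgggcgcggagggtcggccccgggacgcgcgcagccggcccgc
TUBB3 promoter: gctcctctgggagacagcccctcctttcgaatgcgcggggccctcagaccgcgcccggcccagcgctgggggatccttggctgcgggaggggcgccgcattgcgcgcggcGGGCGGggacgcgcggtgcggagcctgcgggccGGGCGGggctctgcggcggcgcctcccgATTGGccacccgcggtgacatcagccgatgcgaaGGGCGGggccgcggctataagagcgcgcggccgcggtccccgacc
TUBB4A promoter: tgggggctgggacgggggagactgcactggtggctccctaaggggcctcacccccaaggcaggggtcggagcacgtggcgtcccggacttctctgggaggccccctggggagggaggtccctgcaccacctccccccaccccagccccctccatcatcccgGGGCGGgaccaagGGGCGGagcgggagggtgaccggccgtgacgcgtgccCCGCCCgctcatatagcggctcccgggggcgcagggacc
TUBB4B held 3 CCAAT boxes and 1 CHR, a motif found in genes of late cell cycle, and no GC box in this window. TUBB6 held 6 GC boxes and 1 CCAAT box, TUBB3 held 3 GC boxes and 1 CCAAT box, and TUBB4A held 3 GC boxes. Of those not shown, TUBB and TUBB2B each held 1 CCAAT box and 1 GC box, and TUBB2A held 5 GC boxes and no CCAAT box. Over the 7 isotypes, 5 promoters had a CCAAT box, 6 a GC box, 1 a TATA box (TUBB2A) and 1 a CHR. Of all 35116 promoters of the same length, 32.0% had a CCAAT box, 42.6% a GC box, 10.7% a TATA box and 13.3% a CHR. No motif overlapped another in these 7 promoters. A match of letters is a description and does not show that a factor binds there.

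Expressed genes within 250 kb were read in the same libraries to show what surrounded each isotype. TUBB4A had 10 neighbours compared in 8505C, of which 4 were called higher and 0 lower, beside 15.0% and 5.89% of all genes, with a median log2 change of 1.25. In SW1736 it had 12, of which 1 was called higher and 2 lower, with a median of 0.25, and against 8505C wt 7 of 11 were called higher and 0 lower, beside 20.4% of all genes called in either direction, with a median of 1.86. Of all genes, 15.7% were called higher and 10.2% lower in SW1736. The neighbours were not tested as a group. Its nearest neighbours were SLC25A23, with log2 changes of 0.99 in SW1736 and 1.94 in 8505C, and TNFSF9, with -0.16 and 2.04. TUBB3 had 15 neighbours compared in 8505C with a median of 0.79 and 14 in SW1736 with a median of 0.17, or 13 with a median of 0.28 against 8505C wt. Upstream of TUBB3 the nearest was MC1R, the melanocortin receptor, at 2.47 FPKM (SW1736 wt), 3.12 (SW1736-PTX), 1.79 (8505C wt) and 6.06 (8505C-PTX), and downstream it was DEF8 (-0.84 and -0.45). The read-through model named above spans MC1R and TUBB3, and its part in their values was not tested.

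The neighbours of the isotypes that were lower in both PTX libraries did not share one direction. TUBB4B had 25 neighbours compared in SW1736, 7 called higher and 1 lower (15.7% and 10.2% of all genes), with a median of 0.91, and 23 in 8505C, 4 higher and 1 lower (15.0% and 5.89% of all genes), with a median of -0.09. Against 8505C wt, 9 of 25 were called higher and 0 lower in the library labelled SW1736-PTX, with a median of 0.77. In that comparison 20.4% of all genes were called in either direction, and the neighbours were not tested as a group. The nearest were CYSRT1 (-0.47 and 0.70) and C9orf173-AS1 (1.44 and 1.67), both near the lower limit of the FPKM scale. CYSRT1 in 8505C and C9orf173-AS1 in SW1736 were below 0.5 FPKM in both libraries and were not among the genes compared there. TUBB lay between MDC1, a DNA damage adaptor (0.08 in SW1736 and -1.58 in 8505C), and FLOT1 (0.61 and -0.23), and its 17 neighbours had a median of -0.22 in SW1736 and -0.23 in 8505C. TUBB2A lay beside BPHL (1.25 and 1.03), and its neighbours had a median of 0.24 over 7 genes in SW1736 and 0.79 over 8 in 8505C. PSMG4, on the other side of TUBB2B, had values of -0.12 and -0.87, and the 8 neighbours of TUBB2B compared in each line had medians of 0.33 and 0.55. Against 8505C wt the medians were -0.42 over 17 neighbours of TUBB, 0.55 over 8 of TUBB2A, 0.55 over 8 of TUBB2B and -0.08 over 2 of TUBB6. TUBB6 had 2 neighbours, AFG3L2, which overlaps it and was named after its values were seen, and SLMO1 (-0.16 and 0.37).

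**Figure D5:**
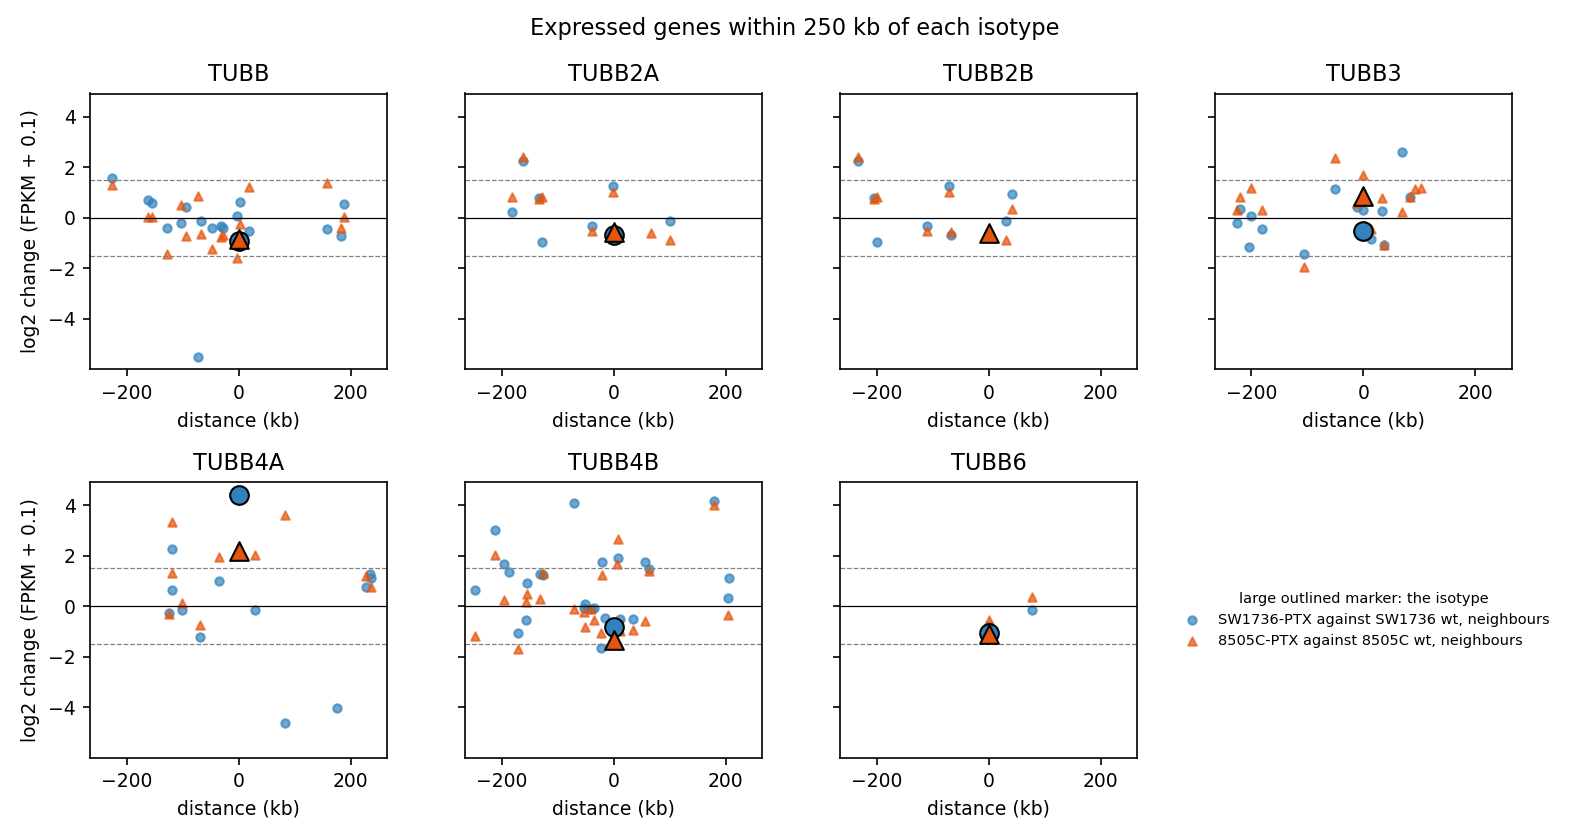
Log2 change of FPKM + 0.1 (vertical axis) of each expressed gene within 250 kb against its distance from the isotype in kb (horizontal axis, 1 panel per isotype); circles are SW1736, triangles are 8505C, large outlined markers are the isotype itself and dashed lines mark 1.5. The markers of TUBB4B and TUBB6 lie below most of their neighbours, and in the TUBB4A panel most triangles lie above 0, with a median of 1.25.

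The proteins that fold tubulin were compared as a list of 20 genes, made up of the chaperonin CCT, prefoldin and the tubulin cofactors. In SW1736, 0 were called higher and 1 lower, beside 15.7% and 10.2% of all genes, with a median log2 change of -0.25. In 8505C 0 were called higher and 3 lower, beside 15.0% and 5.89% of all genes, with a median of -0.95. All 20 were expressed in every library. VBP1, a prefoldin subunit, fell by 1.84 on the log2 scale in SW1736, to 16.8 FPKM, and had a log2 change of -0.93 in 8505C, between 32.3 and 16.9 FPKM. CCT6A, a subunit of the ring that folds new tubulin, had 205 FPKM in wt and 75.4 in PTX cells of SW1736, and 217 and 58.1 in those of 8505C, where it fell by 1.90 on the log2 scale. The other genes called in 8505C were TCP1 (-1.64) and CCT5 (-1.74), named after their values were seen because the count was small. Against 8505C wt, 0 of the 20 were called higher and 3 lower in the library labelled SW1736-PTX, with a median of -0.65. In that comparison 20.4% of all genes were called in either direction. The highest log2 changes of the list were those of ARL2, a partner of the cofactors (0.61 in SW1736), and PFDN5 (0.54 in 8505C).

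Of 22 genes whose products modify tubulin, 21 were found by name, MATCAP1 not being among the names, and 16 were compared in SW1736 and 17 in 8505C. In SW1736 5 were called higher and 1 lower, beside 15.7% and 10.2% of all genes, with a median log2 change of 0.49. In 8505C 4 were called higher and 0 lower, beside 15.0% and 5.89% of all genes, with a median of 0.77. TTLL1, TTLL3 and VASH1 were called higher in both. TTLL1, a polyglutamylase subunit, was at 0.909 FPKM (SW1736 wt), 6.45 (SW1736-PTX), 0.299 (8505C wt) and 6.06 (8505C-PTX). TTLL3, a glycylase, was at 0.664, 2.63, 0.137 and 2.73 FPKM in that order. VASH1, which with its partner removes the last tyrosine of alpha-tubulin, was at 1.03, 7.35, 0.791 and 9.67 FPKM. Its relative VASH2 was at 0, 0.701, 0.264 and 0.818 FPKM, and the enzyme that puts the tyrosine back, TTL, measured 22.8 FPKM in wt and 10.3 in PTX cells of SW1736, with log2 changes of -1.14 there and -1.24 in 8505C, neither past the limit. Against 8505C wt, 4 of 16 were called higher and 1 lower in the library labelled SW1736-PTX, with a median of 0.24. In that comparison 20.4% of all genes were called in either direction. ATAT1, the acetyltransferase of alpha-tubulin, was at 4.43 FPKM in wt and listed at 0 in PTX cells of SW1736, and 1.42 in wt and 2.70 in PTX cells of 8505C.

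Among 8 genes that act on tubulin transcripts, 2 were called higher in SW1736 and 1 in 8505C, with 0 lower in either and medians of 0.21 and 0.01, beside 15.7% and 15.0% of all genes called higher. EPAS1, a hypoxia-inducible factor subunit linked to TUBB3, was at 59.1 FPKM (SW1736 wt), 191 (SW1736-PTX), 47.4 (8505C wt) and 171 (8505C-PTX), and was the gene called in both. ZEB2, a transcriptional repressor, was at 0.386, 5.54, 7.30 and 9.27 FPKM in that order, so that SW1736 wt was the low library. TTC5, which recognises newly made tubulin and triggers decay of its mRNA, was at 8.35, 5.21, 8.07 and 5.97 FPKM, and ELAVL1, an RNA-binding protein, at 32.2, 20.5, 29.8 and 14.8 FPKM. Both were below their wt library in each line and neither was called. Against 8505C wt, 1 of the 8 was called higher and 0 lower in the library labelled SW1736-PTX, with a median of -0.32. In that comparison 20.4% of all genes were called in either direction.

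Some genes had a pattern over the 4 libraries close to that of the 3 isotypes with the widest range. Likeness was the largest absolute difference between centred log2(FPKM + 0.1) values over the 4 libraries, searched among 10133 genes above 5 FPKM in at least 1 library. For TUBB2B, 1 gene came within 1, PAGE1 (0.95), followed by TIE1 (1.07) and KRT14 (1.13). PAGE1 was at 0 FPKM in both SW1736 libraries, 5.38 in 8505C wt and 3.96 in 8505C-PTX. For TUBB4A, 149 genes came within 1, the nearest being CALHM2 (0.31), RAB26 (0.36) and RPH3AL (0.38). For TUBB4B, 4641 genes came within 1, with FAM167A (0.04), NXT1 (0.07) and SNORD26 (0.08) nearest, so its pattern was a common one.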

How the data were processed

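The mRNA of SW1736 and 8505C cells, wt and PTX, was sequenced as 1 library per condition, and groups were taken from the sample titles. Per the study's methods, the authors trimmed single-end reads of 75 bp, aligned them to hg38 with STAR and quantified genes with StringTie; the submitters' processing notes also name bcl2fastq 2.20. The annotation and the versions of STAR and StringTie are not given in the sources used here. The FPKM deposited by the authors is scaled to gene length and depth. The TPM values that the authors deposited rescale it to one common total. The coverage deposited by the authors is the mean read depth over the gene model and is not scaled to depth. A count model was not fitted, because read counts are not part of these tables.

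Rows of the same gene name were summed. The limits of 0.5 FPKM and 1.5 on the log2 scale are those of the study's methods, while the pseudocount of 0.1 and the use of at least 1 library of the pair are choices made here; a pseudocount understates the change of low genes. Depth was the highest ratio of coverage to FPKM divided by the read length. Errors from estimated reads cover counting error only, since reads without molecular identifiers are not independent molecules. How much separate cultures vary cannot be known from single libraries. The isotypes, gene lists and rules for named genes were chosen with earlier results of these data known. All 7 isotypes were named, other TUBB names only if above 0.5 FPKM, except TUBB1 and TUBB8, neighbours as the nearest on each side, and list genes if called the same way in both lines or at the extreme of a line; alpha-tubulins were summed only. Marker lists were neuronal, thyroid follicular, epithelial, mesenchymal and haematopoietic genes. Of the epithelial genes, KRT8 was between 331 and 974 FPKM and KRT18 between 257 and 1437, KRT19 was at 266 in SW1736 wt and at most 0.535 elsewhere, and EPCAM and CDH1 were at most 0.0806. Of the mesenchymal genes, VIM was between 1321 and 3684 FPKM, CDH2 between 35.6 and 38.7, and FN1 at 1133 in SW1736 wt and between 91.7 and 270 elsewhere. The haematopoietic list of 5 genes summed to between 0.913 and 5.06 FPKM. The calling code was run on simulated libraries with known folds and counting error only. That run does not cover variation between cultures. Promoters were read from RefSeq and coding sequences from GENCODE release 44. Python 3.11.15, NumPy 2.4.6, pandas 2.3.3, Biopython 1.88 and matplotlib 3.10.9 were used. Alternatives changed the pseudocount, unit, centring, filter, rows, threshold, reference library and family members.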

Additional observations from a re-analysis of the deposited data

Results flagged for a closer look

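The direction of TUBB3 differed between the lines. Its log2 change was -0.53 in SW1736 and 0.86 in 8505C, a difference of 1.39, and this difference was not tested because each condition had 1 library. ATAT1 also lay on opposite sides, with -5.50 in SW1736 and 0.88 in 8505C, a difference of 6.39 that was not tested. The SW1736 value rests on a listed 0 in SW1736-PTX, which in tables without read counts can be a failed estimate, so its size depends on the pseudocount. ATAT1 is also among the genes within 250 kb of TUBB.

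Of the nearest neighbours, 5 had opposite signs in the lines, and none of these differences was tested. The share of all genes with opposite signs was not worked out, so this count is no result about the neighbours. Some of the values lay close to 0, such as 0.08 for MDC1 and -0.16 for TNFSF9 and SLMO1 in SW1736. The value in 8505C minus that in SW1736 was -1.66 for MDC1, -0.84 for FLOT1, 2.20 for TNFSF9, 1.17 for CYSRT1 and 0.53 for SLMO1. CYSRT1 was at 0.189 and 0.368 FPKM in 8505C, below the limit of 0.5, so it was not among the genes compared there.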

How the results depend on the processing

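The labels give no replicate numbers, and the results come from no test. Each PTX library was compared with the wt library of the same line. A fit of condition over both lines, with line as a term, was not run. The count of isotypes called, 1 in each line, was 0 in both lines when FPKM had to be above 0.5 in both libraries, since TUBB4A did not pass. With a pseudocount of 1 it was 0 in 8505C, where the log2 change of TUBB4A was 1.07. With a limit of 1 on the log2 scale it was 2 in SW1736, adding TUBB6 lower, and 3 in 8505C, adding TUBB4B and TUBB6 lower. The share of all genes called was not worked out under these settings, so these counts are no result about the isotypes as a group. With 8505C wt as the reference it was 2 for the library labelled SW1736-PTX. The other 11 alternative counts equalled the reported ones.

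The log2 change of summed beta-tubulin stayed below 0 and inside the limit under every alternative, from -0.89 to -0.45 in SW1736 and from -1.08 to -0.95 in 8505C. The value of -0.45 came with 8505C wt as the reference. Of 78 alternative values for single isotypes within a line, 77 kept their side of 0 and of the limit. Of 112 alternative shares, 48 moved beyond their counting interval, 24 with depth-scaled coverage and 24 with coverage times gene-model length, under which TUBB exceeded TUBB4B in 3 of the 4 libraries. The depth-scaled coverage was chosen after the data had been seen. TUBB4A is listed at 0 FPKM in SW1736 wt, so its fold in SW1736 depends on the pseudocount, from 1.61 to 7.69 on the log2 scale. Its value in 8505C wt rests on few reads.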
